A study of Mus musculus with 16 samples.

Results

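Glucocorticoid-induced genes were followed as a set of 10: Fkbp5, Sgk1, Tsc22d3, Zbtb16, Mt1, Mt2, Sult1a1, Arrdc2, Angptl4 and Plin4. Every probe of these genes on the array was taken, found through the RefSeq accession in the array files, which gave 16 probes of 10 genes among 56605 probes, of which 39589 were kept for testing and covered 17436 named genes. All 16 member probes were well above background on 16 of 16 arrays and none was saturated, so no member was lost to the filter on dim probes. Adrenal glucocorticoids, corticosterone in mice, bind the receptor NR3C1, which waits in the cytoplasm with HSP90 and its co-chaperones, moves to the nucleus and switches genes on through glucocorticoid response elements in DNA. The genes of the set are known as targets of this hormone in many tissues, and in brain several of them are expressed in glia and vessel cells as well as in neurons. The set holds a regulator of the receptor itself (Fkbp5), a kinase (Sgk1), transcriptional regulators (Tsc22d3 and Zbtb16), metal-binding proteins (Mt1 and Mt2), a conjugating enzyme (Sult1a1), an arrestin-like adaptor (Arrdc2) and proteins of lipid handling (Angptl4 and Plin4).

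The samples were cerebral cortex of 16 male mice on a C57BL/6 background, 28 to 42 weeks old, 1 array per mouse. The 4 groups of 4 were irradiated labelled knockout (Neil1-/-), sham labelled knockout, irradiated wild-type littermates and sham wild-type littermates. Irradiation was 6 Gy of whole-body gamma rays at 0.74 Gy/min, cortex was taken 20 h later, and mice of all groups received BrdU, a thymidine analogue, at 100 mg/kg before and again 2 h after the exposure. NEIL1 is a DNA glycosylase of base excision repair, and the design asks how cortex gene expression answers radiation with and without it. A level is the log2 signal of a probe minus the 75th percentile of its array, so levels of different probes are not comparable, and a change is a difference of such levels.

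Genotype cannot be told apart from slide and scan, because all wild-type arrays were on 1 slide and all labelled knockout arrays on another. Irradiation cannot be told apart from slide row, because irradiated samples lay in row 2 and sham samples in row 1 of both slides. The 75th percentile of intensity averaged 1333 ± 301 in irradiated labelled knockout, 1778 ± 343 in sham labelled knockout, 2301 ± 235 in irradiated wild type and 2415 ± 274 in sham wild type (SD, n = 4 each), and the share of spots well above background ran from 62.4% to 72.4% over the 16 arrays. The Neil1 probe lay between -2.60 and -2.15 in labelled knockout arrays and between -4.32 and -3.30 in wild-type arrays, so it was higher in the arrays labelled knockout (difference 1.39 ± 0.20 SE after irradiation, limma adjusted p = 0.00643). The labels do not name the deleted part of the gene and the files do not place the probe in the transcript, so this probe does not check the labels, and directions between genotypes rest on the labels alone. Markers of cortical neurons (10 of 10), astrocytes (10 of 10), oligodendrocytes (10 of 10), microglia (8 of 8) and endothelium (12 of 12) were well above background on every array. So were 6 of 7 striatal neuron markers and 8 of 10 choroid plexus markers, and the summed striatal level ran from 4.97 to 7.59 between arrays.

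Promoter windows, 250 bases before to 50 after a transcript start, were found for 8 of the 10 genes in the RefSeq table of the build GRCm38.p6, 15 windows in all, with no entry for Zbtb16 and Angptl4. They were searched on both strands for the full glucocorticoid response element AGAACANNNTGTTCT. The hexamer AGAACA, which makes up each side of it and therefore overlaps it, was searched as well. So was TGCNCNC, with any base at N, a looser pattern than the metal response element core. The Sgk1 window is shown for its full element, those of Sult1a1 and Mt1 because the results turn on these genes, and that of Mt2 beside its neighbour Mt1. Windows of Fkbp5, Tsc22d3, Arrdc2 and Plin4 also held the hexamer or TGCNCNC. The Sgk1 window, 1 of 6 of that gene, lies at chr10:21993640-21993939 on the + strand, and the Sult1a1 window at chr7:126676369-126676668 on the - strand. Capitals mark the full element or the hexamer on either strand.
Sgk1: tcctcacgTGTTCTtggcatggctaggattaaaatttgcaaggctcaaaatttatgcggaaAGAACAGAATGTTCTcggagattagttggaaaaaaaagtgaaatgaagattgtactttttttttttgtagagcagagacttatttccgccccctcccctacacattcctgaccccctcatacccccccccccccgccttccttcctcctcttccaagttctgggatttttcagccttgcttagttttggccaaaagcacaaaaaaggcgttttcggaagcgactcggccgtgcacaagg
Sult1a1: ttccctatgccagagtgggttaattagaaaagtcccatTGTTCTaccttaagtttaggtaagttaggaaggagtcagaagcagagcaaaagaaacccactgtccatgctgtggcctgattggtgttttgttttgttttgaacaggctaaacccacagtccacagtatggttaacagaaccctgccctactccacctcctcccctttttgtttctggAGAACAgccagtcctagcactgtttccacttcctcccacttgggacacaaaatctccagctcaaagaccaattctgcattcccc

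The full element was found in 3 of 32851 windows of the table (0.00913%), and the Sgk1 window was one of them, with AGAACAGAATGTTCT starting at position -189 relative to the transcript start. The hexamer was found at least once in 19.0% of all windows, so its presence alone is common. The Sult1a1 window held 2, which start at positions -212 and -34. The share of windows with 2 or more was not computed. Mt1 and Mt2 lie on the + strand of chromosome 8, at chr8:94178839-94179138 and chr8:94172368-94172667 for the windows shown. Capitals there mark TGCNCNC on either strand. The core read by the zinc-sensing factor MTF1 is stricter, so not every match is such a core.
Mt1: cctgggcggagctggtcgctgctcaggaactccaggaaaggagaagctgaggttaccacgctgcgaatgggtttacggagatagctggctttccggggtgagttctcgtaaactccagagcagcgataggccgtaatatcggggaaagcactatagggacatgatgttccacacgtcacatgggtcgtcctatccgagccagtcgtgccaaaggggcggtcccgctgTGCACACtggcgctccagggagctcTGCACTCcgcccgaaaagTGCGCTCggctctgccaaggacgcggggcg
Mt2: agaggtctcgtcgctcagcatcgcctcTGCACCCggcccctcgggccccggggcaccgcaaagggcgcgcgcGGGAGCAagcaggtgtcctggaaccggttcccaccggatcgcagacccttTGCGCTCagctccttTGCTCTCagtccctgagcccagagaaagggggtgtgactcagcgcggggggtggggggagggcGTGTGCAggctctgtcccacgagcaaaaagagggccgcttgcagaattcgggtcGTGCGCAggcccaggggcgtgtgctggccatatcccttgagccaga

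TGCNCNC occurred 3 times in the Mt1 window and 6 times in the Mt2 window. It also occurred 3 times in the Plin4 window and in another Sgk1 window. It is a short motif, found at least once in 51.0% of all windows, while 2.30% held 4 or more copies and 0.225% held 6 or more. Neither metallothionein window held the hexamer or the full element, which says only that these letters are not in these 300 bases.

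In the average of both genotypes, a contrast also of slide row, 1 member was called higher in irradiated mice, Sult1a1, on both its probes. It encodes a cytosolic sulfotransferase that adds sulfate to phenols, among them hormones and drugs. Its probe A_51_P321341 read 0.58, 0.79, 1.0 and 0.74 in irradiated labelled knockout cortex, against 0.17, -0.04, 0.08 and 0.00 in sham labelled knockout cortex. It read 1.03, 1.30, 1.09 and 0.91 in irradiated wild-type cortex, against 0.65, 0.29, 0.71 and 0.07 in sham wild-type cortex. Every irradiated mouse lay above every sham mouse of its own genotype, as was so for 0.227% of all probes in either direction, and the sham wild-type mice fell into a higher and a lower pair. The average change was 0.69 ± 0.10 (SE), a fold of 1.61 with a 95% confidence interval of 1.38 to 1.88 (limma adjusted p = 0.0104 over 39589 probes). An exact permutation test within genotypes gave a two-sided p of 0.000408, the smallest it can give with 4 mice a group.

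The other Sult1a1 probe, A_55_P2005475, also rose. It read 0.37, 0.51, 0.73 and 0.50 in irradiated labelled knockout and -0.02, -0.27, -0.12 and -0.20 in sham labelled knockout. In wild type it read 0.89, 1.07, 0.87 and 0.78 after irradiation and 0.47, 0.04, 0.51 and -0.07 after sham. Groups again did not overlap in either genotype (3.07% of all probes did not in wild type and 2.67% in labelled knockout), and the average change was 0.67 ± 0.10 (limma adjusted p = 0.00913). Deviations of the probes from their group means correlated with r = 0.981 over 16 arrays, so they are readings of 1 gene and not independent evidence.

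The change of Sult1a1 within each genotype, and so within each slide, is the next question. It was 0.72 (95% interval 0.41 to 1.03) in labelled knockout and 0.65 (0.34 to 0.97) in wild type on the first probe, and the difference of these changes was 0.07 with an interval of -0.37 to 0.51. Neither genotype alone passed the adjusted threshold (limma adjusted p = 0.174 in labelled knockout and 0.444 in wild type). Sult1a1 stayed called when any 1 of the 16 arrays was left out. The call was lost with the array median in place of the 75th percentile (change 0.71, limma adjusted p = 0.184) and without replicates 3 and 4 of irradiated labelled knockout, whose arrays were dimmest (0.64, adjusted p = 0.104), where the size hardly moved.

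Read against the whole array, 58 of 39589 probes (0.147%) were called in the average irradiation contrast, 40 of them higher. In labelled knockout 0.0455% and in wild type 0.0404% of all probes were called, and no member was among them. Of the 16 member probes, 14 had a change above 0 in the average, 15 in labelled knockout and 10 in wild type, where 50.4%, 54.3% and 47.7% of all probes did. The brightest probes of the 10 genes had a median change of 0.15 in the average, 0.25 in labelled knockout and 0.14 in wild type, beside 0.0043, -0.00097 and 0.014 over all 17436 genes. Unadjusted p-values under 0.05 were found for 4 of 10 genes in the average (Sult1a1, Plin4, Sgk1 and Mt1), 3 in labelled knockout (Sult1a1, Plin4 and Mt1) and 1 in wild type (Sult1a1), with 5.67%, 6.04% and 1.86% of all probes under that value. Some members covary between mice, so these counts are not counts of independent genes. The members were also chosen with earlier results of these data known, so these counts and medians are description only.

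**Figure D1:**
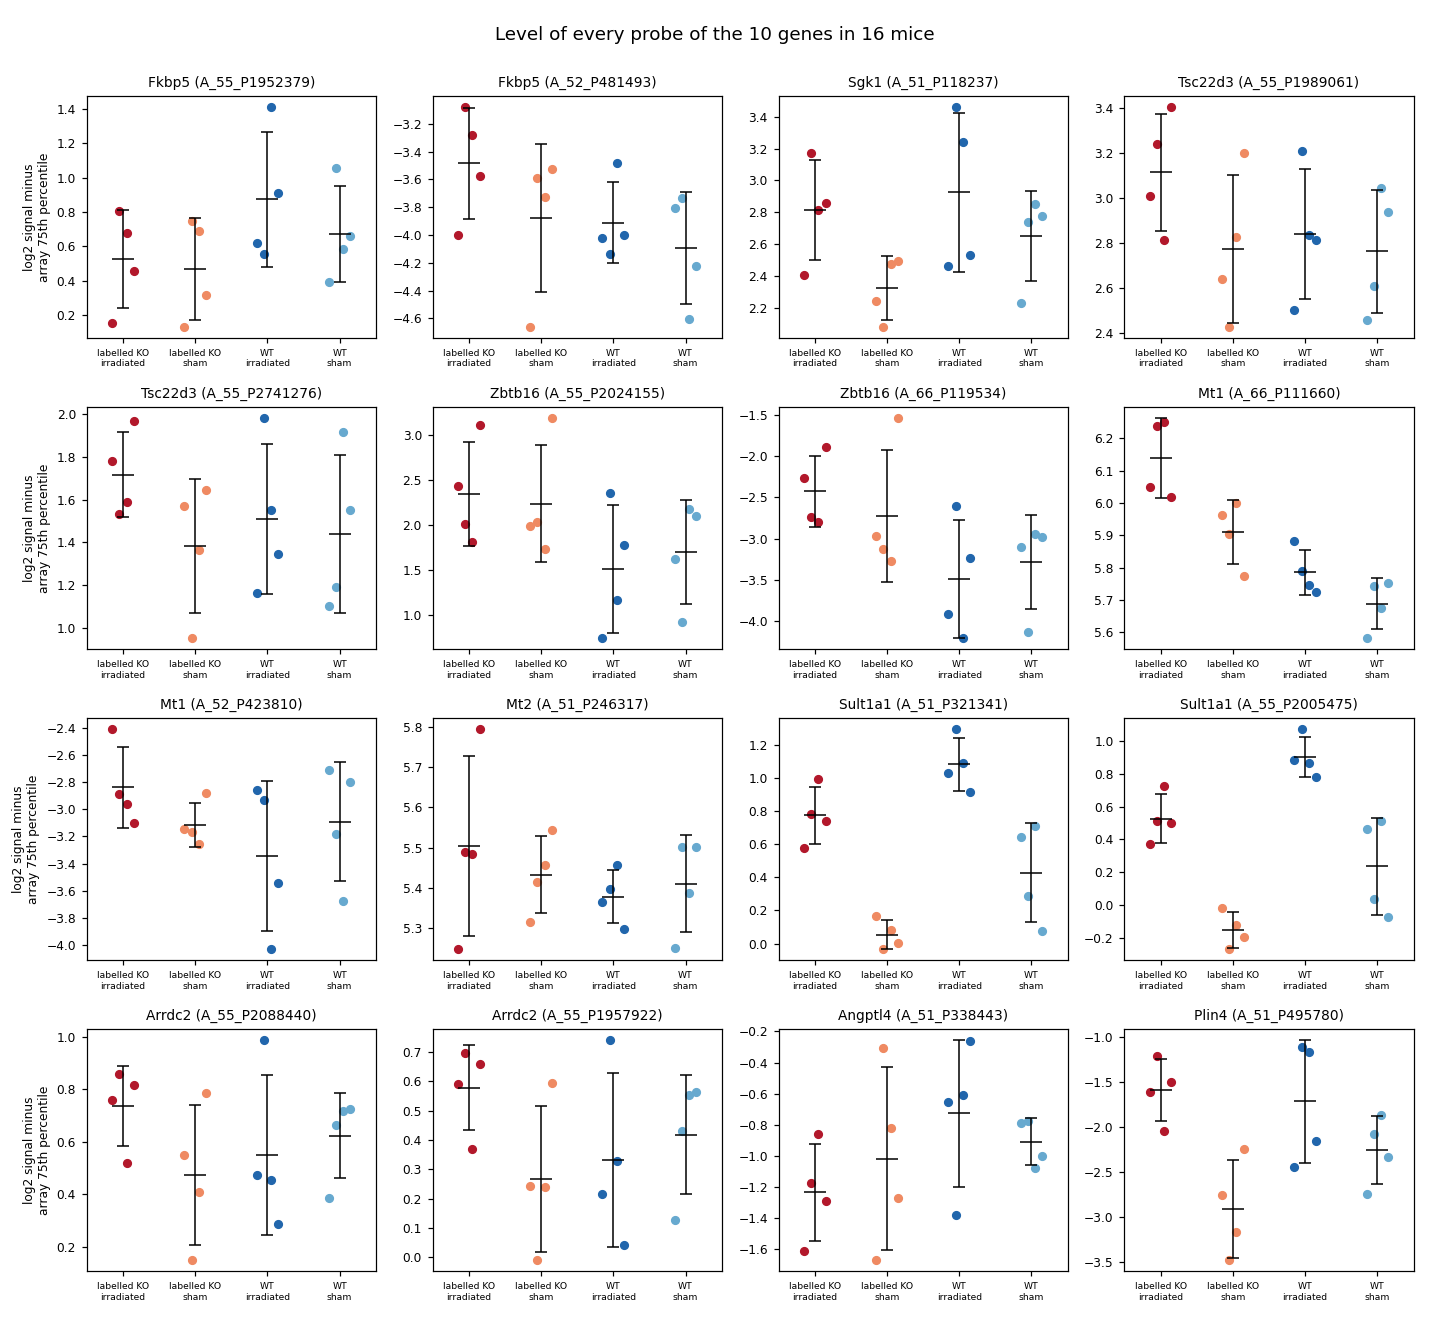
Level (log2 signal minus the array's 75th percentile, y axis, scaled per panel) of the 16 probes of the 10 genes by group, with 1 point per mouse and the mean ± SD (n = 4) in black. Sult1a1 separates irradiated from sham mice in both genotypes, and Plin4 and the bright Mt1 probe do so in labelled knockout alone. Of all probes, 3.07% did not overlap in wild type and 2.67% in labelled knockout. The points of Zbtb16 spread over more than 2.4 log2 units in each panel.

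Plin4, a perilipin that coats lipid droplets, had the largest estimated change of the set without passing the test. It read -1.62, -1.21, -2.05 and -1.50 in irradiated labelled knockout, against -2.75, -3.48, -3.17 and -2.24 in sham labelled knockout. In wild type it read -2.44, -1.11, -1.17 and -2.15 after irradiation, against -2.74, -2.07, -1.86 and -2.34 after sham. The labelled knockout groups did not overlap, as was so for 2.67% of all probes in either direction. In wild type 2 irradiated mice stood above the sham mice and the other irradiated mice lay among them. The average change was 0.93 ± 0.24 (95% interval 0.42 to 1.43, limma adjusted p = 0.333), with 1.31 ± 0.33 in labelled knockout and 0.54 ± 0.33 in wild type. The difference between the genotypes' changes was 0.78 with an interval of -0.24 to 1.79 (limma unadjusted p = 0.122), so a difference was not shown.

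Angptl4, a secreted inhibitor of lipoprotein lipase and the other member of lipid handling, differed by less than its spread. Its levels were -1.61, -1.18, -0.86 and -1.29 in irradiated labelled knockout, against -1.67, -0.30, -0.82 and -1.27 in sham labelled knockout. Irradiated wild-type cortex gave -0.65, -1.38, -0.61 and -0.26, against -0.79, -0.78, -1.08 and -1.0 in sham wild-type cortex. Groups overlapped in both genotypes and the average change was -0.02 ± 0.20 (limma adjusted p = 1.0), with an interval of -0.44 to 0.41. Genes of PPAR signalling and fatty acid oxidation, the pathway that shares Angptl4 and Plin4 as targets, had 0 of 11 tested genes called in either direction and a median change of -0.04. The 4 with the smallest p in that list were Acot1 (-0.15 ± 0.09), Pdk4 (-0.12 ± 0.08), Cpt1a (-0.11 ± 0.10) and Slc25a20 (-0.19 ± 0.18), each a change in log2 level ± SE.

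Sgk1, a serine/threonine kinase that regulates ion channels and transporters, had an average change of 0.38 ± 0.16 that did not pass the test (limma adjusted p = 0.835). Its levels were 2.41, 3.17, 2.81 and 2.86 in irradiated labelled knockout, against 2.25, 2.08, 2.48 and 2.50 in sham labelled knockout. In wild type they were 2.47, 3.46, 3.24 and 2.53 after irradiation, against 2.23, 2.74, 2.85 and 2.78 after sham. In labelled knockout 1 irradiated mouse lay among the sham mice and 3 lay above them, and in wild type 2 irradiated mice lay above all sham mice. The change was 0.49 ± 0.23 in labelled knockout and 0.28 ± 0.23 in wild type.

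Fkbp5 encodes FKBP51, a co-chaperone that lowers the affinity of the glucocorticoid receptor for its hormone and is itself induced by it. Its brighter probe read 0.15, 0.81, 0.68 and 0.45 in irradiated labelled knockout, against 0.13, 0.75, 0.69 and 0.32 in sham labelled knockout. It read 0.62, 0.55, 1.41 and 0.91 in irradiated wild type, against 0.39, 1.06, 0.58 and 0.66 in sham wild type. The groups overlapped almost wholly in labelled knockout, and in wild type 1 irradiated mouse stood above the rest. Average changes were 0.13 ± 0.15 on this probe and 0.29 ± 0.20 on the dimmer probe A_52_P481493, whose levels ran from -4.66 to -3.08 (limma adjusted p = 1.0 for both). The 95% intervals of the average reached from -0.20 to 0.46 and from -0.14 to 0.71, so a rise of that size lies within what these arrays cannot show.

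Tsc22d3 encodes GILZ, a leucine zipper protein that damps inflammatory transcription. The brighter of its probes read 3.01, 3.24, 2.81 and 3.41 in irradiated labelled knockout, against 2.64, 2.43, 2.83 and 3.20 in sham labelled knockout. In wild type it read 2.50, 3.21, 2.84 and 2.82 after irradiation, against 2.46, 2.61, 3.05 and 2.94 after sham. All groups overlapped, and the average changes of the probes were 0.21 ± 0.14 and 0.20 ± 0.15 (limma adjusted p = 1.0 for both). In labelled knockout the changes were 0.34 ± 0.20 and 0.33 ± 0.22, and in wild type 0.08 ± 0.20 and 0.07 ± 0.22.

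Zbtb16 encodes PLZF, a zinc finger repressor, and varied most between mice of a group. Its brighter probe read 2.44, 2.01, 1.81 and 3.12 in irradiated labelled knockout, against 1.99, 2.04, 1.74 and 3.19 in sham labelled knockout. It read 0.73, 2.36, 1.17 and 1.78 in irradiated wild type, against 1.62, 0.91, 2.18 and 2.10 in sham wild type. The within-group SD was 0.63, and 90.9% of all genes had a smaller one. Average changes were -0.04 ± 0.29 and, on the dimmer probe, 0.05 ± 0.30 (limma adjusted p = 1.0 for both), with intervals of -0.67 to 0.59 and -0.60 to 0.69. Arrdc2, an alpha-arrestin that links membrane proteins to ubiquitin ligases, had probes that read between 0.15 and 0.99 and between -0.01 and 0.74. Its average changes were 0.10 ± 0.12 and 0.11 ± 0.12, made up of 0.26 and 0.31 in labelled knockout and -0.07 and -0.09 in wild type, and no interval of these left out 0.

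**Figure D2:**
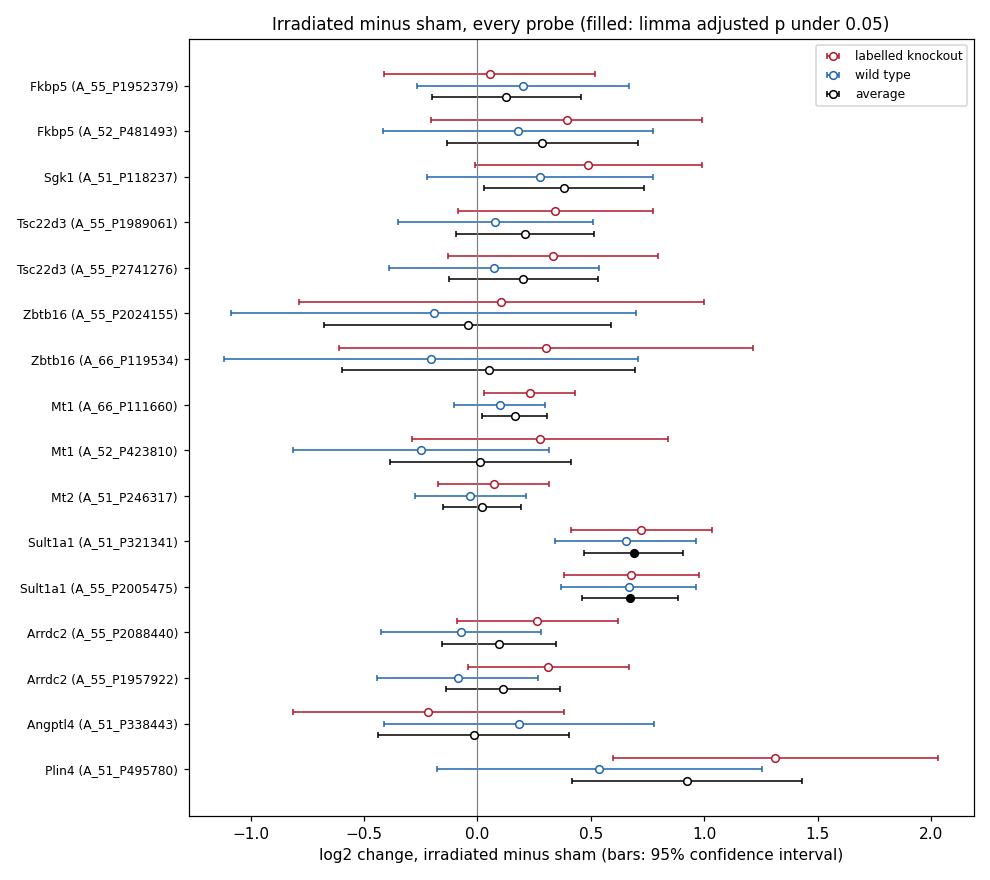
Change after irradiation (log2, x axis) of every member probe in labelled knockout, wild type and their average, with 95% confidence intervals from limma and filled points for an adjusted p under 0.05. Both Sult1a1 probes are the filled points, at 0.69 and 0.67, and Plin4 lies farther right, at 0.93, with a wider interval.

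Metallothioneins bind zinc and copper, and respond to metals through MTF1 as well as to glucocorticoids. The bright Mt1 probe, A_66_P111660, read 6.05, 6.24, 6.25 and 6.02 in irradiated labelled knockout, against 5.96, 5.90, 6.00 and 5.77 in sham labelled knockout. It read 5.88, 5.79, 5.75 and 5.73 in irradiated wild type, against 5.58, 5.74, 5.68 and 5.75 in sham wild type. It had the tightest within-group spread of the set, with an SD of 0.095. All irradiated labelled knockout mice lay above the mice of every other group, at the nearest 6.02 against 6.00 in sham labelled knockout. Of all probes, 2.67% did not overlap between irradiated and sham labelled knockout. Between genotypes after irradiation, also a contrast of slide and scan, 12.0% did not. The share for all groups at once was not computed. The irradiated minus sham change of this Mt1 probe was 0.16 ± 0.07 on average. It was 0.23 ± 0.09 in labelled knockout and 0.10 ± 0.09 in wild type. None of these passed the test (limma adjusted p = 0.80, 0.74 and 1.0). Mt2 read 5.25, 5.49, 5.48 and 5.79 in irradiated labelled knockout and 5.31, 5.41, 5.46 and 5.54 in sham labelled knockout. In wild type Mt2 read 5.36, 5.40, 5.46 and 5.30 after irradiation and 5.25, 5.50, 5.39 and 5.50 after sham, and its average change of 0.02 had an interval of -0.15 to 0.19.

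Between genotypes, Mt1 was the 1 member called, higher in labelled knockout after irradiation by 0.35 ± 0.09 (fold 1.28, interval 1.11 to 1.47, limma adjusted p = 0.0458). In that contrast 4.67% of all probes were called and 12.0% did not overlap, and the contrast is also one of slide and scan. Of the 1848 probes called, 1623 were higher, against 539 of 975 called with z-scores within each array, and 5 probes in all were called when the same dim pair was left out. The Mt1 call was among those lost without that pair (limma adjusted p = 0.122). It was also lost when 13 of the 16 arrays were left out in turn, with 1 probe per gene (limma adjusted p = 0.0661) and with a fit of these 2 groups alone (adjusted p = 0.155). Quantile normalization lowered the difference to 0.13, and scaling by the array median lowered it to 0.15, where the median of all probes was -0.14 in place of 0.07. Its other probe, A_52_P423810, which is matched to a predicted Mt1 transcript, did not follow the bright one within groups (r = -0.006) and differed by 0.50 ± 0.26 (adjusted p = 0.31). Mt2 differed by 0.13 ± 0.11 (adjusted p = 0.609).

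In sham mice no member was called between genotypes, where 0.0455% of all probes were. Mt1 was 0.22 ± 0.09 higher in labelled knockout on the bright probe without overlap, as 5.66% of all probes were in either direction, and Sult1a1 had differences of -0.38 ± 0.15 and -0.39 ± 0.14 on its probes (limma adjusted p = 0.497, 0.44 and 0.408). After irradiation Sult1a1 had differences of -0.31 ± 0.15 and -0.37 ± 0.14 (adjusted p = 0.249 and 0.136). The Fkbp5 probes went opposite ways, the brighter by -0.35 ± 0.22 and the dimmer by 0.43 ± 0.28 after irradiation (adjusted p = 0.408 and 0.434). In sham they differed by -0.20 ± 0.22 and 0.21 ± 0.28 (adjusted p = 0.894 and 0.92). With normexp background correction the dimmer probe was called after irradiation (adjusted p = 0.0343), as 37.2% of all probes were. Angptl4 differed by -0.51 ± 0.28 after irradiation (adjusted p = 0.336). Zbtb16 differed by 0.84 ± 0.42 and 1.06 ± 0.43 after irradiation and by 0.54 ± 0.42 and 0.56 ± 0.43 in sham, with the labelled knockout higher in each, and none passed the test (adjusted p = 0.282, 0.167, 0.802 and 0.792). No member and no other probe was called for the interaction of genotype and irradiation (754 of 39589 probes, 1.90%, had an unadjusted p under 0.05 in limma, and none was a member probe).

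**Figure D3:**
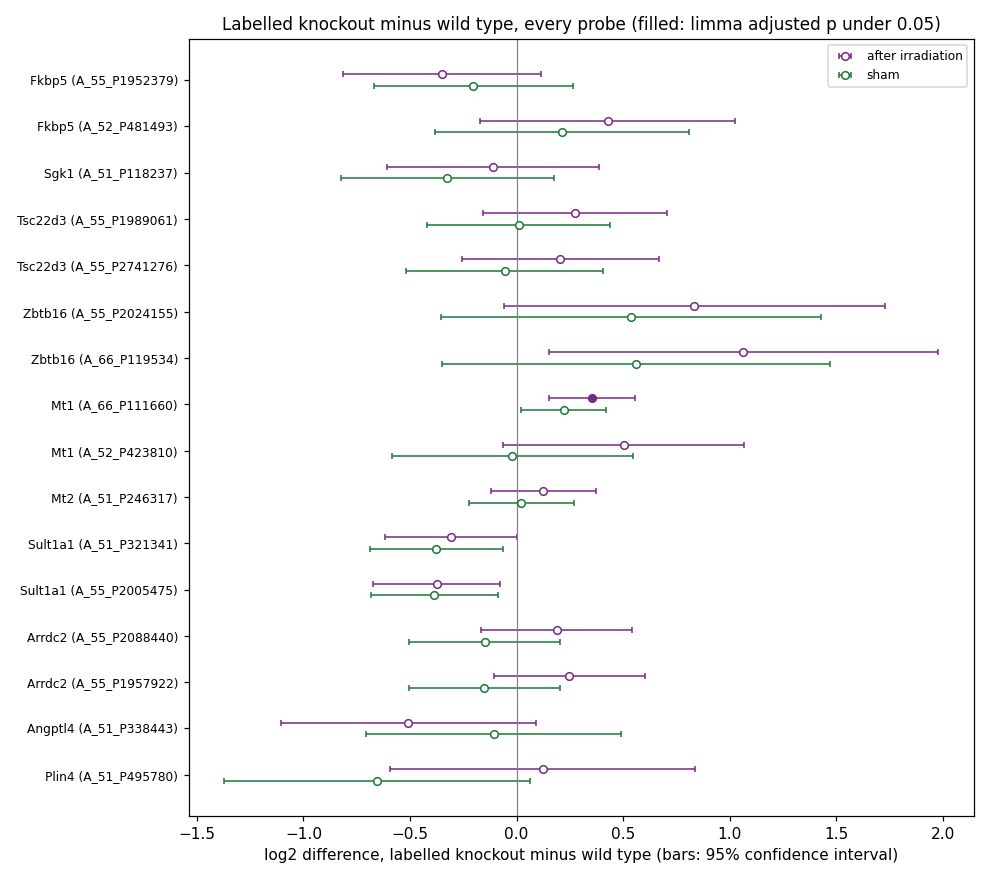
Difference between genotypes (log2, labelled knockout minus wild type, x axis) of every member probe after irradiation and in sham, with 95% confidence intervals and filled points for a limma adjusted p under 0.05. The bright Mt1 probe after irradiation, at 0.35, is the filled point, and Zbtb16 has the widest intervals.

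A further 23 genes known to be induced by glucocorticoids, all tested, gave 1 that rose and 0 that fell in the average irradiation contrast, with 16 above 0 and a median change of 0.08. The gene that rose was Cdkn1a, the cell cycle inhibitor p21 (1.32 ± 0.14, limma adjusted p = 0.000382), which is also a p53 target. Hif3a, a negative regulator of the hypoxia response, changed by 0.65 ± 0.16 (adjusted p = 0.294). Lcn2, an iron-carrier-binding protein of the acute phase, changed by 1.17 ± 0.30 (adjusted p = 0.326) and Cebpd, an acute phase transcription factor, by 0.34 ± 0.15 (adjusted p = 0.838). Klf9 (-0.04 ± 0.13) and Per1 (0.14 ± 0.18), direct targets of the receptor in brain, were not called, with adjusted p = 1.0. Their SE leave room for a change in either direction. The p53 target list, which shares Cdkn1a, had 9 of 16 that rose and a median of 0.69, among them Gdf15 (1.90 ± 0.12), Trp53inp1 (1.03 ± 0.07) and Ephx1 (1.30 ± 0.09).

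**Figure D4:**
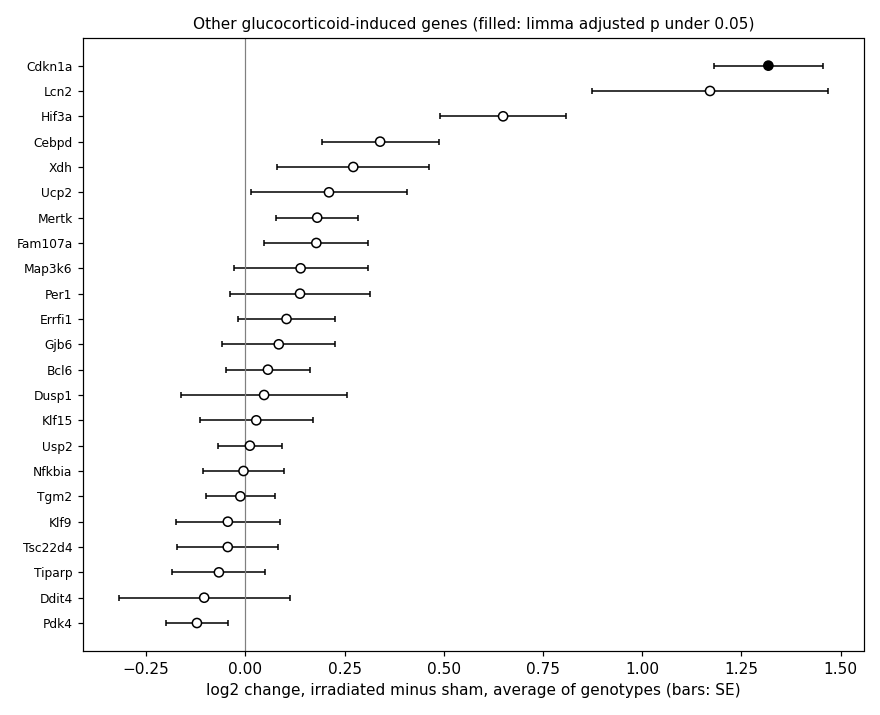
Average change after irradiation (log2, x axis, bars ± SE) of 23 other glucocorticoid-induced genes, 1 probe per gene, filled for a limma adjusted p under 0.05. Cdkn1a, at 1.32, is the filled point, and Lcn2 (1.17) and Hif3a (0.65) follow it.

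The receptor's own machinery gave no call. Of 13 tested genes of the glucocorticoid receptor and its chaperones, 0 were called and the median change was -0.03. The receptor gene Nr3c1 changed by -0.03 ± 0.15 and the mineralocorticoid receptor gene Nr3c2 by 0.23 ± 0.16. The co-regulators Ncoa1 (-0.11 ± 0.06) and Ncor1 (-0.14 ± 0.10) did not pass the test (limma adjusted p = 0.954 and 1.0). The chaperone genes Hspa8 (0.33 ± 0.10) and Hsp90ab1 (0.28 ± 0.10) had the smallest p between genotypes in sham, higher in labelled knockout, with adjusted p = 0.337 and 0.413.

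Relatives of the members and of the metallothioneins' pathway also gave no call in the average irradiation contrast. In the families of the members 0 of 22 tested genes were called (median -0.02), with Zbtb20 at -0.40 ± 0.15, Sult4a1 at 0.14 ± 0.07, Plin5 at 0.30 ± 0.21 and Tsc22d1 at 0.12 ± 0.08. In the metal response list 0 of 13 were called (median -0.02), with Hmox1 at 0.33 ± 0.13, Slc39a8 at -0.22 ± 0.10, Fth1 at 0.15 ± 0.07 and Slc30a3 at 0.20 ± 0.15. Between genotypes after irradiation, also a contrast of slides, 1 of 22 family genes was called higher and 1 lower in labelled knockout, and 1 of 13 metal response genes higher, beside 4.67% of all probes, and 5 probes in all were called without the 2 dimmest arrays. Clock genes (0 of 16, median 0.04) and immediate early genes (0 of 12, median -0.06), read because corticosterone follows the day and handling, were not called either. Of the 12 immediate early genes, 11 lay below 0 in labelled knockout (median -0.20) and 8 above 0 in wild type (median 0.06). Between genotypes in sham, also a contrast of slides, 11 lay above 0 (median 0.28). Of all 17436 genes, 49.8%, 54.5% and 45.3% lay above 0 in these 3 contrasts. The cause of these shifts was not tested.

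Some members covaried between mice of the same group. Of 45 pairs of the 10 genes, 8 correlated with a Benjamini-Hochberg adjusted p under 0.05 in a permutation test within groups (Pearson's r of deviations from group means, 16 arrays), and 7 of these were positive. The positive pairs tied Sgk1, Tsc22d3, Arrdc2 and Plin4 to each other, and Zbtb16 to Tsc22d3, and Fkbp5, Mt1, Mt2 and Sult1a1 were in none of the 8. Arrdc2 and Plin4 had r = 0.80 (permutation p = 0.0012, adjusted p = 0.0251) and Spearman's rho = 0.76 (permutation p = 0.00322, adjusted p = 0.0252), with r = 0.74 without the 2 arrays farthest from the median. On the labelled knockout slide alone r was 0.98, and on the wild-type slide 0.67.

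The other pairs of that group gave similar values. Tsc22d3 with Arrdc2 had r = 0.80 and rho = 0.78, and Tsc22d3 with Plin4 had r = 0.78 and rho = 0.77 (adjusted permutation p = 0.0251 for both r and 0.0252 for both rho, from p = 0.00186, 0.00188, 0.00279 and 0.00336). Sgk1 had r = 0.80 with Plin4 (rho 0.81, permutation p = 0.00615 and 0.00268, adjusted p = 0.0395 and 0.0252) and r = 0.70 with Tsc22d3 (rho 0.73, permutation p = 0.00302 and 0.00279, adjusted p = 0.0272 and 0.0252). Sgk1 had r = 0.67 with Arrdc2 (permutation p = 0.00716, adjusted p = 0.0403), where the adjusted p of rho, 0.67, was 0.0505. Zbtb16 with Tsc22d3 had r = 0.79 and rho = 0.73 (permutation p = 0.00223 and 0.00545, adjusted p = 0.0251 and 0.035). Arrdc2 and Angptl4 ran opposite ways, with r = -0.82 and rho = -0.81 (permutation p = 0.0038 and 0.00207, adjusted p = 0.0285 and 0.0252). Without the 2 farthest arrays these r lay between 0.60 and 0.71, and at -0.68 for the negative pair. On single slides the positive pairs had r from 0.46 to 0.98 in labelled knockout and from 0.67 to 0.96 in wild type, and the negative pair -0.75 and -0.93.

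Single mice of the 4 groups ranked as follows. Among sham labelled knockout mice, replicate 4 was highest for Sgk1 (2.50), Tsc22d3 (3.20), Arrdc2 (0.78), Plin4 (-2.24) and Zbtb16 (3.19). Replicate 2 of that group was lowest for Sgk1 (2.08), Tsc22d3 (2.43), Arrdc2 (0.15) and Plin4 (-3.48), and highest for Angptl4 (-0.30). Among irradiated wild-type mice, replicate 2 was highest for Sgk1 (3.46), Tsc22d3 (3.21), Arrdc2 (0.99), Plin4 (-1.11) and Zbtb16 (2.36), and lowest for Angptl4 (-1.38). In irradiated labelled knockout, replicate 2 was highest for Sgk1, Arrdc2 and Plin4 but replicate 4 for Tsc22d3 and Zbtb16. In sham wild type, replicate 3 was highest for Sgk1, Tsc22d3, Plin4 and Zbtb16, and replicate 4 for Arrdc2. For Sult1a1, r with the other 9 members lay between -0.19 and 0.25. Mt1 and Mt2, neighbours on chromosome 8, had r = -0.03.

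Mouse-to-mouse differences that some members shared ran through much of the array. The first principal component of the within-group deviations held 31.3% of their variance, and the median absolute r of all genes with it was 0.374. Its r was 0.85 for Zbtb16, 0.85 for Tsc22d3, 0.78 for Arrdc2 and -0.75 for Angptl4 (adjusted permutation p = 0.0143, 0.0226, 0.0248 and 0.0248 over 130 relations, rho 0.83, 0.85, 0.74 and -0.82). Summed endothelial markers correlated with Plin4 (r = 0.75), Tsc22d3 (0.73) and Arrdc2 (0.70), and summed oligodendrocyte markers with Arrdc2 (0.80) and Angptl4 (-0.80), each with an adjusted permutation p of 0.0248 or less. Fkbp5 went with microglial markers (r = 0.76, adjusted p = 0.0394), Arrdc2 against meningeal fibroblast markers (-0.70, adjusted p = 0.0394) and Zbtb16 against striatal neuron markers (-0.76, adjusted p = 0.0485). These were all of the relations under an adjusted p of 0.05, 12 of 130, with permutation p from 0.00011 to 0.00448, and every measure comes from the same arrays as the members. Spearman's rho gave adjusted p from 0.0368 to 0.0665 for them, with 4 above 0.05 (endothelial with Tsc22d3, oligodendrocyte with Arrdc2, microglial with Fkbp5 and striatal with Zbtb16). Without the 2 farthest arrays the positive r lay between 0.66 and 0.79 and the negative between -0.80 and -0.68, and no r changed sign on either slide. Plin4 and Sgk1 had r = 0.68 and 0.41 with the first component and did not pass (adjusted permutation p = 0.063 and 0.376). Sgk1 was in none of the 12 relations. In bulk tissue fewer cells of a type and less RNA per cell cannot be told apart, and the part of cell makeup in the members' values was not tested.

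The marker lists themselves stood as follows beside the irradiation results, with values for some of them. Choroid plexus and red cell markers had the largest medians in labelled knockout and the average, with 0 called. Of 9 choroid plexus markers, 8 lay above 0 in each genotype. Their median was 0.57 in labelled knockout, 0.25 in wild type and 0.39 in the average. Of 5 red cell markers, 4 lay above 0 in labelled knockout (median 1.16) and 2 in wild type (-0.11). In the average their median was 0.49. Summed levels of both overlapped between irradiated and sham mice in each genotype. All 10 oligodendrocyte markers had a change above 0 in labelled knockout (median 0.21) and below 0 in wild type (median -0.28), with 0 called. Their summed log2 level ran from 6.83 to 7.65 in irradiated labelled knockout, 6.51 to 7.43 in sham labelled knockout, 6.61 to 7.29 in irradiated wild type and 6.66 to 7.47 in sham wild type. The 12 endothelial markers had a median change of 0.03 in labelled knockout and -0.21 in wild type, with 0 called and summed levels of 4.45 to 5.15, 4.69 to 5.12, 4.90 to 5.14 and 4.84 to 5.23 in the groups in the same order. Microglia markers were the one cell type list with a call in an irradiation contrast, 1 of 8, and the gene was P2ry12, a purinergic receptor of microglia. It fell in labelled knockout (-0.76 ± 0.11, limma adjusted p = 0.0144) and in the average (-0.69 ± 0.08, adjusted p = 0.000751), and its change in wild type was -0.62 ± 0.11 (adjusted p = 0.104). The list had medians of -0.24 in labelled knockout, -0.13 in wild type and -0.17 in the average, and its summed level ran from 4.78 to 5.04 in irradiated labelled knockout, 4.93 to 5.29 in sham labelled knockout, 4.88 to 5.10 in irradiated wild type and 5.11 to 5.36 in sham wild type. Its part in the values of Fkbp5 was not tested. Sult1a1 had r between -0.42 (astrocyte) and 0.05 (red cell) with the 10 marker sums.

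**Figure D5:**
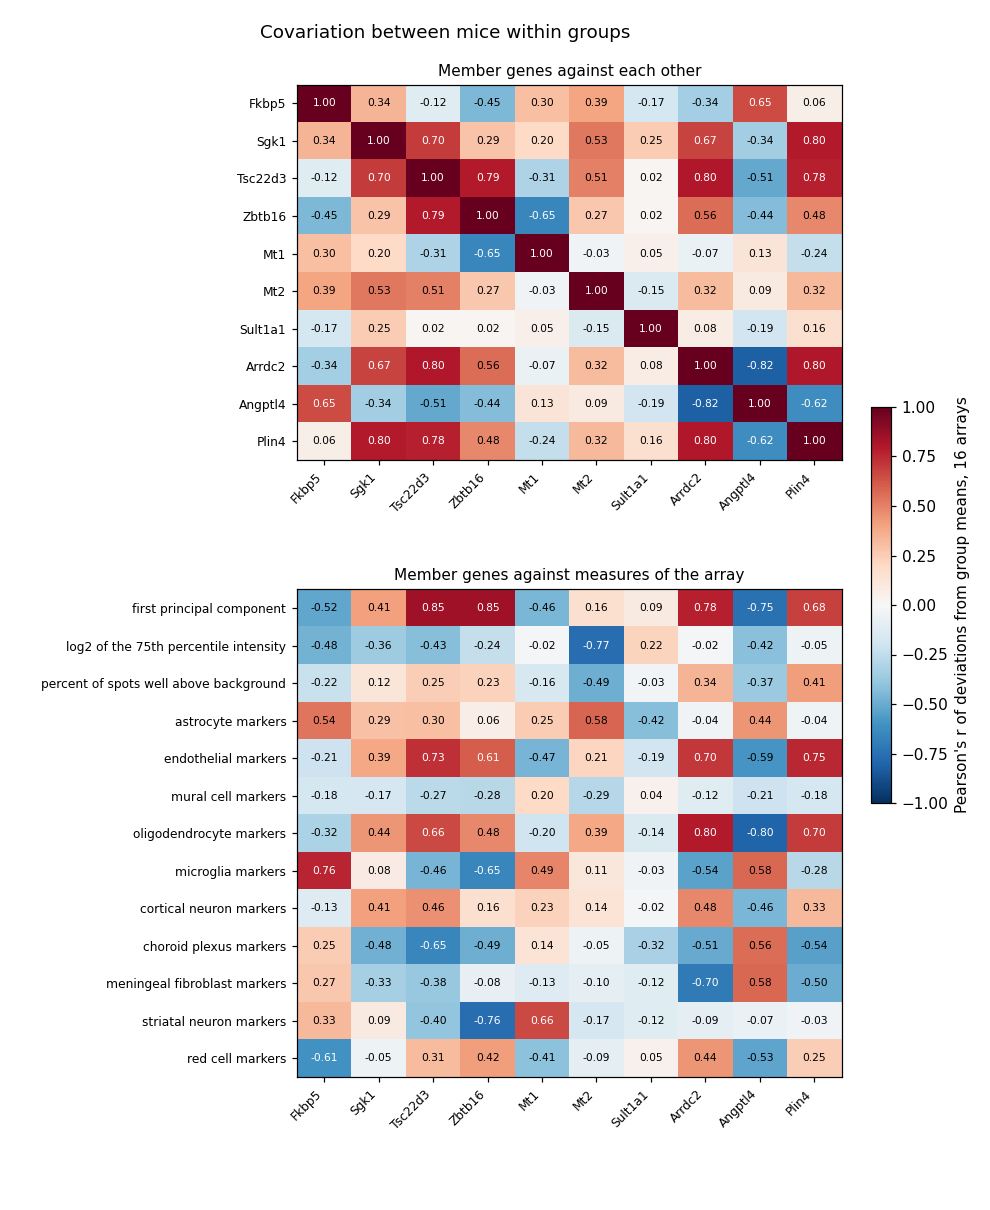
Pearson's r of deviations from group means over 16 arrays, between the 10 genes (upper grid) and between them and 13 measures of the array (lower grid: first principal component, brightness, share of spots above background, and summed markers of 10 cell types). Sgk1, Tsc22d3, Arrdc2 and Plin4 form a block of r from 0.67 to 0.80, and Sult1a1 has r between -0.19 and 0.25 with the other genes and down to -0.42 in the lower grid.

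Genes outside the set followed some members more closely than the members followed each other. By r over 16 arrays after group means were subtracted, among 17380 genes, the nearest to Tsc22d3 were Nova1 (0.96), Plekhm2 (0.96) and Zmat4 (0.95), and the nearest to Zbtb16 was Tmem232 (0.97). Angptl4 was closest to Snai2 (0.97), Plcxd3 (0.95) and Fabp7 (0.94), and Fkbp5 to Gngt2 (0.94), Sh3kbp1 (0.93) and Cracdl (0.93). Plin4 was closest to Ccr10 (0.88), Fmo2 (0.86) and Dok7 (0.86), Arrdc2 to Gpt (0.90), Rassf4 (0.89) and Casz1 (0.89), and Sgk1 to Ier5l (0.85), Smim3 (0.80) and Tmtc1 (0.80). Mt2 was closest to Cd81 (0.88), Rps29 (0.87) and Gsr (0.84), and Mt1 to 4933408N05Rik (0.88), Klk12 (0.85) and Gm5478 (0.83). Sult1a1 had no gene above 0.73, the value of Olfr914, followed by 4930478P22Rik (0.69) and Armc7 (0.68). These are the highest of many values and carry no test.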

How the data were processed

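Cerebral cortex RNA of 16 mice was hybridised to 1-colour Agilent arrays. Per the file headers, the authors extracted spot intensity with Feature Extraction 12.0.3.1 at 3 micron; the processed signal used here was background-subtracted within the array and not scaled between arrays. The authors deposited a table of scores as well (columns of mean 0 and SD 1), made in a way not given in the sources used here, and used as an alternative. Outlier spots and control spots were left out, spots of a probe were averaged, and log2 of the deposited intensity minus the array's 75th percentile was the level. Probes well above background on at least 4 of 16 arrays were kept (39589). Probes were named through RefSeq accessions with the table of GRCm38.p6 (32994 of 35886 matched); the array design uses mm9, so no probe coordinates are given.

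limma 3.58.1 (R 4.3.3) fitted 1 model with a mean per group, 12 residual degrees of freedom and 6 contrasts; adjusted p-values are Benjamini-Hochberg over all kept probes, two-sided, called under 0.05. The fit was tested on simulated data. Exact permutation tests used all splits, and correlations used 100000 permutations within groups, both two-sided. The members and lists were chosen with earlier results of these data known. Named are all members, in each list up to 4 genes with the smallest p after irradiation and up to 2 between genotypes in sham, and the 3 genes most like each member; 1 gene that this rule names is not reported here. Nr3c1, Klf9 and Per1 were named after their values were seen. Alternatives were other background corrections, scalings, filters, probe rules, variance models, weights per array, a block for the replicate number, the table of scores and fits without each array in turn. Correlations and the fit without the 2 dimmest arrays were added after seeing the data. The normexp correction had been planned on mean signals and was run on median signals instead, a departure from the plan. Replicate numbers follow the slide column and were not taken to pair the mice.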

Additional observations from a re-analysis of the deposited data

Results flagged for a closer look

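The dimmer Zbtb16 probe, A_66_P119534, read -4.13 in sham wild-type replicate 2, against -3.10, -2.94 and -2.98 in the other sham wild-type mice. Its gap to the nearest of them was 0.867 of the group's range, above Dixon's 95% critical value for 4 arrays. The brighter Zbtb16 probe was also lowest in this mouse (0.91, against 1.62, 2.18 and 2.10). In all, 64 groups of 4 were looked at, and chance flags about 1 in 20 groups.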

How the results depend on the processing

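The count of member genes called after irradiation, 1 in the average of genotypes, was 0 with the array median in place of the 75th percentile and 0 without the 2 dimmest arrays, and 1 in every fit that left out 1 array. The count between genotypes after irradiation, also 1, was 4 with normexp, 0 with quantile normalization, the array median, 1 probe per named gene, only the groups of the contrast, the deposited scores and without the 2 dimmest arrays, and ran from 0 to 1 when 1 array was left out. The causes were not tested. The counts for the other contrasts were 0 under every alternative run. Over 96 probe values, 2771 of 2812 alternatives kept the side of the threshold and stayed within 1 SD, 23 lost a call, 4 gained one, 14 moved by more and 0 called values turned sign. The call of Mt1 was lost in 19 alternatives, with adjusted p from 0.0525 to 0.667.

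With the replicate block, Sult1a1 kept its change of 0.69 and Mt1 its call (adjusted p = 0.0484), and calls over all probes were 57 against 58 in the average irradiation contrast and 2322 against 1848 between genotypes after irradiation. Irradiated and sham mice of the same replicate number correlated with r from -0.03 to 0.52 in labelled knockout and from -0.49 to 0.22 in wild type. The mean r was 0.195 in labelled knockout and -0.0452 in wild type, against -0.0746 and 0.015 for mice of other replicate numbers. The replicate numbers were not taken to pair the mice. Animal numbers differ from replicate numbers in some mice, and pairing by animal number was not tested.

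Probes called between genotypes after irradiation, 1848 in all, were 14719 with normexp (13616 higher), 7037 with no filter on dim probes, 2842 with a random replicate block, 975 with z-scores, 880 with only the groups of the contrast, 579 with the deposited scores, 542 with quantile normalization (377 higher), 205 of 17436 genes with 1 probe per gene, 133 with the array median (96 higher) and 5 without the 2 dimmest arrays, with 303 to 2519 when 1 array was left out. Those called after irradiation, 58, were 30 with the array median and 31 without the 2 dimmest arrays. In labelled knockout, 18 became 10, 7 and 2 (array median, without the 2 dimmest, only those groups), in wild type 16 became 5 with only those groups, and between genotypes in sham 18 became 11, 11, 9, 6 and 47 (array median, no filter, 1 probe per gene, only those groups, array weights). With 1 array left out, the count ran from 11 to 19 in labelled knockout, 12 to 17 in wild type, 43 to 59 in the average and 8 to 20 between genotypes in sham. The lowest counts were 11 without irradiated labelled knockout replicate 1, 8 without sham labelled knockout replicate 2 or sham wild-type replicate 3, and, after irradiation between genotypes, 303 without irradiated wild-type replicate 3. The number of arrays, 4 a group, limits the precision.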
